A study of Mus musculus with 26 samples.

Results

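Kupffer cells, macrophages that live in the sinusoids of the liver, were profiled by ATAC-seq in untreated C57BL/6J mice (n = 4) and untreated BALB/cJ mice (n = 4) to ask which regulatory regions differ between these inbred strains before any stimulus. ATAC-seq uses a transposase that cuts and tags accessible DNA, so a peak marks a promoter, an enhancer or another open site. Both groups were male mice, 8 to 12 weeks old, of unmodified inbred strains from a single supplier. The mice were fasted overnight and not injected, and their livers were perfused and digested with flavopiridol, which halts transcription, in the buffers. Kupffer cells were then sorted as live single cells that were CD146-, CD45+, F4/80 high and CD11b intermediate. The series holds 26 libraries. Besides these 8, untreated A/J mice and untreated CB6F1/J mice, the hybrid of both strains, are used below for context. The A/J libraries (n = 4) also entered the fit, for its scaling and its estimate of the spread. So did libraries of C57BL/6J (n = 3) and BALB/cJ mice (n = 2) injected with lipopolysaccharide (LPS). Of the 96381 peaks of the inbred count table, 94171 lie on chromosomes 1 to 19. The peaks compared were the 51246 of these with a mean normalised count above 16 over the 8 libraries, which leaves out an interval of chromosome 11 that is described at the end.

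Kupffer cells clear particles and pathogens from portal blood, recycle iron and haem from old red cells, and carry TLR4, the sensor of lipopolysaccharide. Their open chromatin is set by macrophage lineage factors such as PU.1 and by factors that the liver induces, among them LXRα (Nr1h3), SpiC, ID3 and the Notch effector RBPJ. Enhancers are short clusters of binding sites for such factors, and a base change in a site can raise or lower binding of the factor and, with it, accessibility. The 2 strains differ at variants across the whole genome, so that a difference at a peak can come from a variant in the peak, from a variant elsewhere, or from the environment of the cell. In the hybrid, both parental alleles share each nucleus.

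A normalised count is the number of tags in the 1000-bp window around a peak, divided by the effective size of its library over the geometric mean of these sizes. Log2 ratios are C57BL/6J over BALB/cJ ± SE, and peaks count as called where the adjusted p was below 0.05 and the log2 ratio beyond 1 in size. Means are given ± SD over 4 libraries. The libraries were taken as separate mice per the labels, and p-values measure the spread between these libraries. The counting windows of 44095 peaks overlap that of another peak, so neighbouring peaks are not independent.

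The label was checked on 12 Kupffer cell and macrophage markers, of which 11 had a peak within 1 kb of their start on these chromosomes. Their summed promoter counts lay between 1907 and 2131 in C57BL/6J and between 1842 and 2258 in BALB/cJ. None of the highest promoter peaks of the 11 genes was called. Csf1r, the receptor for macrophage colony-stimulating factor, averaged 94.7 ± 14 in C57BL/6J and 117 ± 43.8 in BALB/cJ. Spic, which encodes SpiC, averaged 129 ± 12.7 in C57BL/6J and 133 ± 10.4 in BALB/cJ (log2 ratio -0.04 ± 0.17). The least equal of them was Clec4f, a lectin particular to Kupffer cells in mice, with 29, 20.9, 31.2 and 37.2 in C57BL/6J against 29, 19.5, 88.6 and 89 in BALB/cJ (log2 ratio -0.96 ± 0.40, adjusted p = 0.14). The BALB/cJ libraries themselves split at Clec4f, replicates 1 and 2 lying in or just below the C57BL/6J range and replicates 3 and 4 far above it. Most defining markers of other cells had no promoter peak: of 9 neutrophil markers 2 had a promoter peak, of 11 lymphocyte markers 1, of 9 hepatocyte markers 1 and of 8 monocyte markers 3. Their summed counts were lower in C57BL/6J for monocytes (29.6 to 34.6, against 44.8 to 51.7 in BALB/cJ), lymphocytes (0.580 to 3.9, against 4.88 to 10.7 in BALB/cJ) and sinusoidal endothelium (52.0 to 83.5, against 87.0 to 128.9 in BALB/cJ). For neutrophils the ranges overlapped (30.7 to 67.8 in C57BL/6J against 65.4 to 94.0 in BALB/cJ), and most of these counts came from S100a8. Stellate cell markers summed to 464 to 624 in C57BL/6J against 406 to 642 in BALB/cJ, most of it from Hgf, and hepatocyte markers to 4.81 to 8.70 against 6.64 to 9.40 in BALB/cJ. No tested promoter peak of these other cell types was called, and their part in the results below was not tested. In such bulk samples, fewer cells of a type cannot be told apart from lower accessibility per cell.

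**Figure D1:**
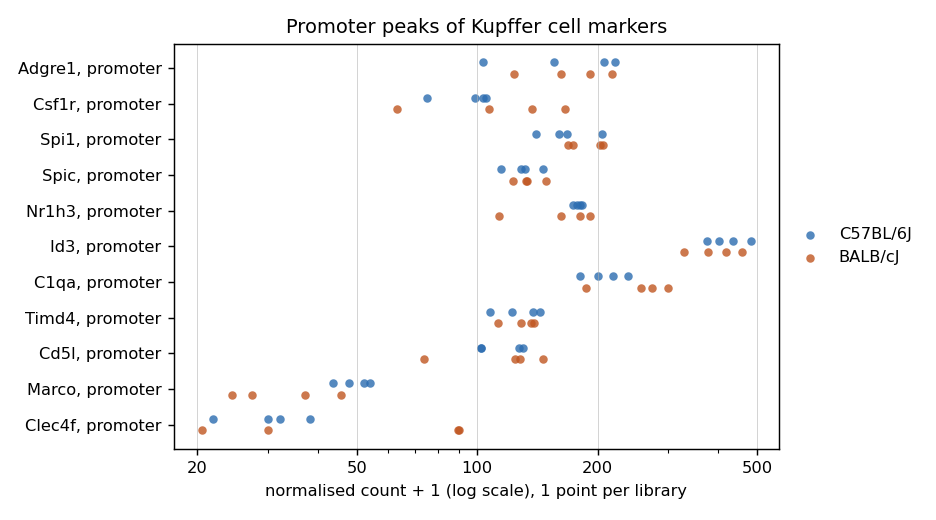
Promoter peaks of 11 Kupffer cell markers, with the normalised count plus 1 on a log axis and 1 point per library (blue, C57BL/6J; orange, BALB/cJ; n = 4 each). None of the 11 peaks was called, and Clec4f shows 2 BALB/cJ libraries near 89, far above the other libraries.

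The libraries held 9.95 to 25.4 M tags in C57BL/6J and 12.2 to 15.9 M in BALB/cJ, except BALB/cJ replicate 4, which held 178.3 M. Tags in nuclear peaks numbered 2.82 to 7.54 M in C57BL/6J and 3.15 to 47.2 M in BALB/cJ. Mitochondrial tags made up 0% of the tags in peaks in all 4 C57BL/6J libraries and 19.9 to 25.8% in BALB/cJ. Whether mitochondrial reads were taken out of these C57BL/6J columns before counting is not given in the sources used here, and the C57BL/6J libraries after LPS held 19.6 to 28.1%. The share of nuclear tags in promoter peaks was 44.3 to 47.7% in C57BL/6J and 40.7 to 45.4% in BALB/cJ. Correlations of log2 counts between libraries were 0.888 to 0.931 within C57BL/6J, 0.850 to 0.912 within BALB/cJ and 0.711 to 0.820 between the strains.

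In all, 3744 of the 51246 peaks were called (7.31%), 1646 higher in C57BL/6J (3.21%) and 2098 lower in C57BL/6J (4.09%). Most of these differences were moderate: 66.0% of the called peaks had an absolute log2 ratio between 1 and 2, while 322 were higher and 312 lower in C57BL/6J by a log2 ratio over 3. The 4 libraries of one strain lay wholly above the 4 of the other at 86.1% of the called peaks, against 14.7% of all tested peaks. A further 1496 peaks passed the adjusted p but not the fold. Without BALB/cJ replicate 4, the deep library, 1280 peaks were higher in C57BL/6J and 1311 lower, which are nearly equal counts. With that library kept but thinned to the mean depth of the other BALB/cJ libraries, 1342 were higher and 1707 lower.

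The reference sequences of 6 differing peaks are printed here, as examples of sites that differed, near a Notch target (Hes1), a cytokine receptor (Tnfrsf1a), a transcription factor (Maff), the interferon receptor (Ifnar1), a calcium channel gene (Cacna1a) and a Kupffer cell secreted protein (Cd5l). They are the C57BL/6J sequence of mm10 (GRCm38) on the + strand, each over the whole peak, and the BALB/cJ bases were not used here. Capitals mark matches to 3 words, each searched on both strands. The ETS word is AGGAAGT, which 21.9% of all tested peaks hold and which reads as its reverse complement on the other strand. The AP-1 word is TGANTCA, held by 11.7%, and the MAF word is TGCTGAC, held by 5.51%. The sites lie at chr16:30155103-30155303, chr6:125360100-125360300, chr15:79357661-79357861, chr16:91475852-91476052, chr8:84420606-84420806 and chr3:87334745-87334945. In the Cacna1a peak the AP-1 word and the MAF word, read on the other strand, overlap. The 6 peaks were picked for holding a searched word or tags that span a variant in the hybrid. Their matches therefore do not show how often differing peaks hold a word. A match is a description of the letters and not a bound site.
Hes1 peak: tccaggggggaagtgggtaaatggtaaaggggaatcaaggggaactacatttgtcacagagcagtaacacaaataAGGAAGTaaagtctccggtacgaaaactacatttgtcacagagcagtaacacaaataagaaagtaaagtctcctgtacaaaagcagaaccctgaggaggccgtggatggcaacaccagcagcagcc
Tnfrsf1a peak: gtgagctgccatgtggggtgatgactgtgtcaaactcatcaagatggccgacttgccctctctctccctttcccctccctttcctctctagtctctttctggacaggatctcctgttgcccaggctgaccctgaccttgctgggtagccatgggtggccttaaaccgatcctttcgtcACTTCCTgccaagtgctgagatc
Maff peak: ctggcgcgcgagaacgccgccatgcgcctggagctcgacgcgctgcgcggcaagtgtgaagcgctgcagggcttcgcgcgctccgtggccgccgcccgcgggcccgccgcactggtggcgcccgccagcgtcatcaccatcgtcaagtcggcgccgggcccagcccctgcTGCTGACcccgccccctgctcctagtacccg
Ifnar1 peak: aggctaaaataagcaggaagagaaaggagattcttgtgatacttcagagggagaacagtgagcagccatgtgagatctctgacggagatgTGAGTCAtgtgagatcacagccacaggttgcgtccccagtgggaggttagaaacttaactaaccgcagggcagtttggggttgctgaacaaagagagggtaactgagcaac
Cacna1a peak: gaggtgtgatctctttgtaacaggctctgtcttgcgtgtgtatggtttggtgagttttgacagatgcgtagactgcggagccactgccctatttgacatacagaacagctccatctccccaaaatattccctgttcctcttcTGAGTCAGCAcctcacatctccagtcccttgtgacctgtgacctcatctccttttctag
Cd5l peak: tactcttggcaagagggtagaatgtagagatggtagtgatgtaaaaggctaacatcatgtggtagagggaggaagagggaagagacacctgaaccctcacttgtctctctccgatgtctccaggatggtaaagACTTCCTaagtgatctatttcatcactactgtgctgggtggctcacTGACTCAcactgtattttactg

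Of these 6 peaks, 3 were higher in C57BL/6J. The Hes1 peak is intergenic and lies 89846 bp from the start of Hes1, the nearest gene, which encodes a transcriptional repressor induced by Notch. It held 49.3, 46.5, 42.9 and 61.2 normalised counts in the C57BL/6J libraries and 0, 0.975, 0 and 2.67 in the BALB/cJ libraries (log2 ratio 4.70 ± 0.51, adjusted p = 4.5e-08). The Tnfrsf1a peak lies in an intron downstream of the start of the gene for TNF receptor 1, and held 141, 177, 148 and 128 in C57BL/6J against 36.9, 24.4, 43 and 52.2 in BALB/cJ (log2 ratio 1.86 ± 0.24, adjusted p = 8.9e-07). The Maff peak covers part of the last exon of Maff, a small MAF protein that lacks an activation domain, and held 208, 263, 161 and 194 in C57BL/6J against 39.6, 62.4, 34.9 and 43.5 in BALB/cJ (log2 ratio 2.18 ± 0.26, adjusted p = 1.8e-07). At all 3 peaks every C57BL/6J library lay above every BALB/cJ library, and the Hes1 peak was empty in 2 of the 4 BALB/cJ libraries. In the hybrid, the C57BL/6J allele held every one of the 72 tags that span a variant at the Hes1 peak, 66.1% of 356 tags at the Tnfrsf1a peak and 88.2% of 76 tags at the Maff peak, summed over 4 animals. By animal its share was 50.9 to 79.2% at the Tnfrsf1a peak and 100, 0, 88 and 95.7% at the Maff peak.

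The other 3 peaks were lower in C57BL/6J. The Ifnar1 peak lies 9263 bp before the start of the gene for a chain of the type I interferon receptor, in an RLTR16 element, a long terminal repeat (LTR) of the ERVK family of endogenous retroviruses. It held 4.64, 4.81, 9.1 and 6.65 in C57BL/6J against 169, 180.4, 132 and 176 in BALB/cJ (log2 ratio -4.75 ± 0.29, adjusted p = 3.6e-13). The Cacna1a peak lies in an intron of the gene for the pore subunit of a neuronal calcium channel, and held 0.58, 1.6, 1.3 and 2.66 in C57BL/6J against 165, 177, 132 and 139.7 in BALB/cJ (log2 ratio -6.78 ± 0.39, adjusted p = 1.5e-13). The Cd5l peak lies 23036 bp from the gene for CD5L, a secreted protein of tissue macrophages, and held 29.6, 28.9, 14.3 and 26.6 in C57BL/6J against 69.9, 75.1, 72.5 and 98 in BALB/cJ (log2 ratio -1.67 ± 0.28, adjusted p = 5.4e-05). The groups did not overlap at any of these peaks. The C57BL/6J allele held 8.52% of 152 tags in the hybrid at the Ifnar1 peak, 2.54% of 335 tags at the Cacna1a peak and 16.4% of 164 tags at the Cd5l peak.

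**Figure D2:**
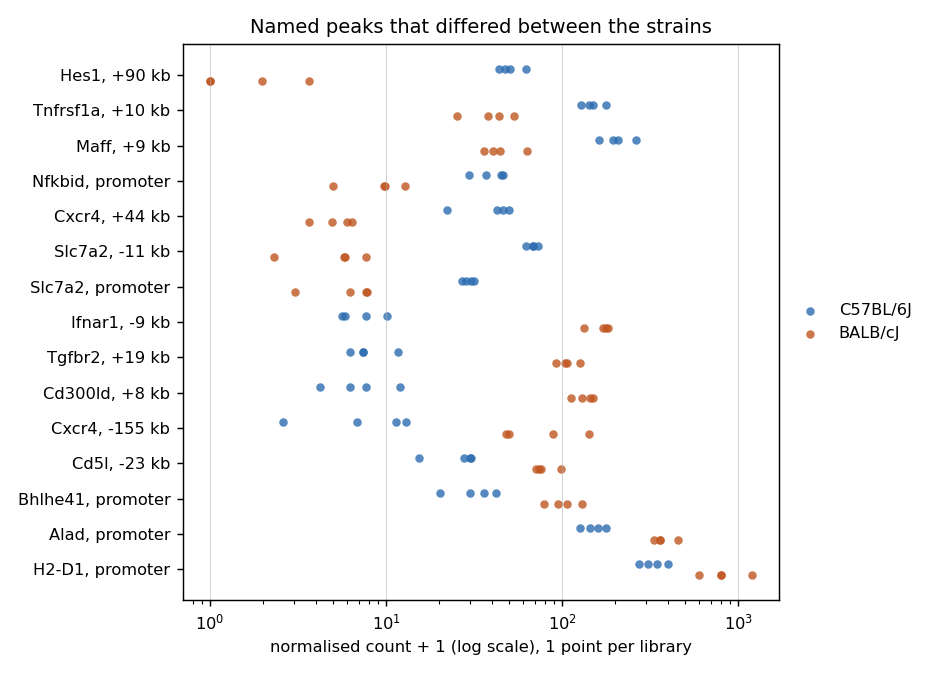
Named peaks that differed, with the normalised count plus 1 on a log axis and 1 point per library (blue, C57BL/6J; orange, BALB/cJ; n = 4 each). The first 7 peaks are higher in C57BL/6J and the other 8 higher in BALB/cJ, and at each the points of the strains do not overlap.

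The share of peaks that differed grew with distance from the nearest transcription start. Within 1 kb of a start 2.99% of 15673 peaks were called, between 5 and 20 kb 8.66%, and beyond 100 kb 13.5% of 3308. The direction changed as well: 285 promoter-proximal peaks were higher in C57BL/6J and 184 lower (60.8% of calls higher), while beyond 100 kb 153 were higher and 294 lower (34.2% higher). Median log2 ratios ran from 0.13 within 1 kb to -0.15 beyond 100 kb, and without BALB/cJ replicate 4 from 0.09 to -0.05. The higher share of promoter tags in the C57BL/6J libraries, given above, moves with this difference, and its part in it was not tested. Without BALB/cJ replicate 4, 58.1% of the calls within 1 kb and 45.3% of those beyond 100 kb were higher in C57BL/6J. With that library thinned to the mean depth of the other BALB/cJ libraries instead, these shares were 60.35% and 34.97%. Without C57BL/6J replicate 2, which had the highest promoter share, the call split within 1 kb was 196 higher and 185 lower (51.4% higher).

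**Figure D3:**
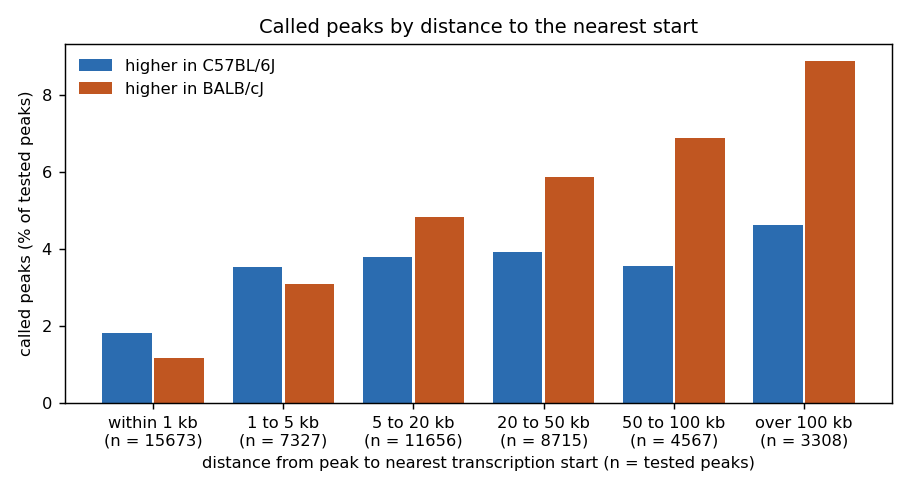
Called peaks as a percent of tested peaks, by distance to the nearest transcription start (blue, higher in C57BL/6J; orange, higher in BALB/cJ). Bars for higher in BALB/cJ grow with distance, and those for higher in C57BL/6J are the taller of each pair only within 5 kb of a start.

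By annotation, 2.79% of promoter peaks, 8.44% of intronic peaks and 9.37% of intergenic peaks were called. Peaks in CpG islands were called less often (3.53%, 52 higher and 21 lower in C57BL/6J) than others (7.46%). The rate also depends on the tag count, since shallow peaks need a larger difference to be measured yet were called most: 10.8% of peaks with a mean count of 16 to 32 and 0.361% of those in the highest class. Peaks inside annotated LTR elements were called at 12.3% (211 higher and 178 lower in C57BL/6J), those in DNA transposons at 13.7%, in LINEs at 9.18% and outside repeats at 6.76%. The ERVK and ERV1 families stood at 14.6% each and the ERVL-MaLR family at 12%. Peaks in which at least 50% of the 30-mers recur in mm10 were called at 19.5% (545 peaks) and the others at 7.18%. Among single element types with at least 20 tested peaks, RMER19B, an ERVK LTR, had 2 higher and 10 lower of 47, and MTC, an ERVL-MaLR LTR, had 23 higher and 9 lower of 172.

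Variants between the parents lay under the differing peaks more often. Of the 3145 called peaks that matched a peak of the hybrid table, 49.8% held at least 8 tags that span a variant in the 4 hybrid animals, against 17.2% of uncalled peaks. The share was 57% for peaks higher in C57BL/6J and 44.5% for those lower. It grew with the size of the difference, being 40.6% at absolute log2 ratios of 1 to 2, 60.7% at 2 to 3 and 74.3% above 3. Read the other way, 18.3% of peaks with variant-spanning tags were called and 4.48% of those without. Deeper peaks reach 8 tags more easily, and called peaks had a lower median count (29.2) than uncalled ones (44.6).

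In the hybrid, the alleles leaned the same way as the parents at most of these peaks. At 661 peaks higher in C57BL/6J with at least 32 variant-spanning tags, the C57BL/6J allele held a median of 70.9% of the tags, and more than 50% at 622 of them. At 712 peaks lower in C57BL/6J the median was 28.9%, and the share passed 50% at 58. Uncalled peaks had a median of 50.3% (5912 peaks). The hybrid animals were not part of the strain test, and the medians were alike in each of the 4 animals (71.9 to 73.6% for peaks higher in C57BL/6J and 26.6 to 28.05% for peaks lower). An exception was the promoter of Btbd11, which held 274, 274, 261 and 254 in C57BL/6J against 5.27, 1.95, 5.37 and 7.19 in BALB/cJ (log2 ratio 5.49 ± 0.32, adjusted p = 2.1e-13). The strains were far apart, yet in the hybrid the C57BL/6J allele held 51.3% of 246 tags, between 49.7 and 53.9% in the 4 animals.

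The differing peaks were unevenly spread along the chromosomes. By chromosome the share called ran from 5.28% on chromosome 15 to 9.46% on chromosome 8. In windows of 2 Mb with at least 10 tested peaks (952 windows), the median share was 5.88%, 134 windows had no called peak and 62 had over 20%. Windows in which under 2% of peaks held variant-spanning tags had 3.38% of their peaks called, and those in which over 40% did had 16.2%. Across the windows the shares had a Spearman rho of 0.57, as a description, since windows share libraries and both shares depend on depth. The most dense was a window on chromosome 14 (98 to 100 Mb) with 6 of 10 peaks called, all lower in C57BL/6J. Next came 2 on chromosome 6, of which 92 to 94 Mb had 1 higher and 9 lower of 18, and 94 to 96 Mb, which holds Magi1, 0 higher and 8 lower of 15. A window on chromosome 13 (88 to 90 Mb) followed with 10 of 20, all higher. The chromosome 14 window had variant-spanning tags at only 5% of its peaks.

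**Figure D4:**
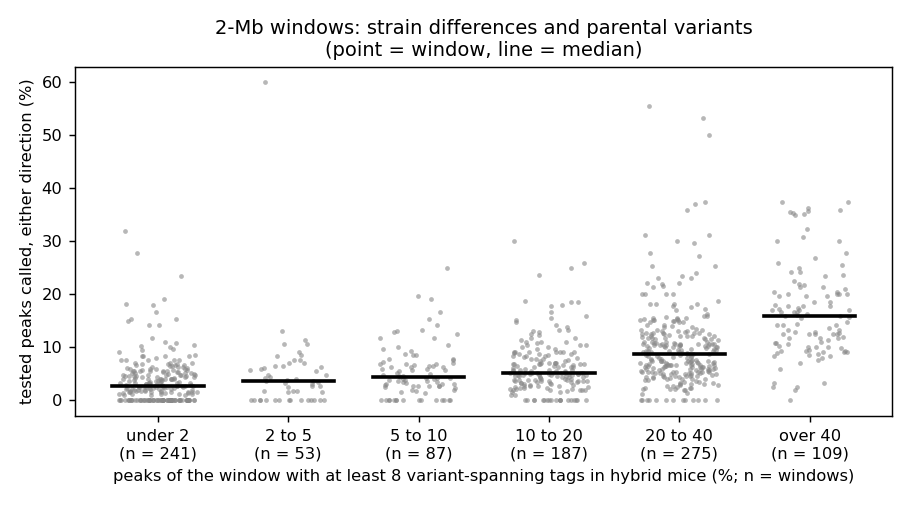
Share of tested peaks called in each of 952 windows of 2 Mb, grouped by the percent of the window's peaks with at least 8 variant-spanning tags in hybrid mice (grey point, 1 window; black line, median of the class). The medians rise from 2.70% in the class under 2% to 15.9% in the class over 40%.

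At promoters, the peaks with the smallest p among named genes were spread over genes of unlike function. Mpp7, a scaffold protein of cell junctions, held 332, 228, 352 and 285 in C57BL/6J against 29, 7.8, 28.2 and 18.6 in BALB/cJ (log2 ratio 3.92 ± 0.24, adjusted p = 5.2e-13). Ank2, which links membrane proteins to the cytoskeleton, held 107, 103, 125 and 93.1 in C57BL/6J against 9.23, 7.8, 8.05 and 5.99 in BALB/cJ (log2 ratio 3.91 ± 0.27, adjusted p = 3.4e-12). Both promoters still held tags in every BALB/cJ library, though far below the lowest C57BL/6J library. Lower in C57BL/6J was Atp6v0e2, a subunit of the proton pump that acidifies lysosomes, with 2.9, 3.21, 1.3 and 2.66 in C57BL/6J against 89.7, 92.6, 59.1 and 78.6 in BALB/cJ (log2 ratio -4.92 ± 0.37, adjusted p = 3.2e-11). So was Mxra8, an adhesion protein, with 6.38, 4.81, 5.2 and 13.3 in C57BL/6J against 111, 105, 107 and 115 in BALB/cJ (log2 ratio -3.89 ± 0.31, adjusted p = 1.2e-10). The alleles of the hybrid leaned the same way, with 81.1% of 111 tags from C57BL/6J at Mpp7, 12.6% of 317 tags at Atp6v0e2 and 15.7% of 99 tags at Mxra8. Cacna1a was also lower at its promoter (1.74, 0, 5.2 and 2.66 in C57BL/6J against 156, 189, 129 and 149.7 in BALB/cJ, log2 ratio -6.01 ± 0.40, adjusted p = 2.5e-12), as were Ankk1 (log2 ratio -5.22 ± 0.49) and Magi1, a junction scaffold (-3.05 ± 0.30). Lower too was a peak 933 bp past the start of the olfactory receptor gene Olfr1509, annotated to the end of that gene (-4.70 ± 0.51).

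A smaller but very regular difference stood at Alad, the enzyme that joins aminolevulinate into porphobilinogen in haem synthesis. Its promoter held 125, 177, 159 and 142 in C57BL/6J against 359, 333, 361 and 452 in BALB/cJ (log2 ratio -1.34 ± 0.15, adjusted p = 5.2e-08). Every C57BL/6J library lay below every BALB/cJ library. Iron and haem genes as a list had 1 peak higher in C57BL/6J and 4 lower of 165. The higher one lies in the first intron of Ftl1, the ferritin light chain (163, 231, 144 and 164 in C57BL/6J against 91, 142, 63.1 and 43.7 in BALB/cJ, log2 ratio 1.08 ± 0.29, adjusted p = 0.012), and lost its call without C57BL/6J replicate 2, BALB/cJ replicate 3 or BALB/cJ replicate 4 (log2 ratios 0.91, 0.96 and 0.81). At that Ftl1 peak 34.9% of the 30-mers recur elsewhere in mm10. Aco1, an iron sensor, had an intronic peak that was lower in C57BL/6J (log2 ratio -1.17 ± 0.30, adjusted p = 0.0095) and lost its call without BALB/cJ replicate 4 (-0.99).

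Among distal peaks, several differed almost as a switch. Near Col11a2, a collagen gene within the MHC region, an exonic peak held 230.2, 204, 163 and 133 in C57BL/6J against 0, 0, 1.34 and 0.829 in BALB/cJ (log2 ratio 7.82 ± 0.38, adjusted p = 2.1e-15). Near Hrh2, the histamine H2 receptor, an intronic peak held 118, 83.4, 124 and 126 in C57BL/6J against 2.64, 0.975, 2.68 and 0.461 in BALB/cJ (log2 ratio 6.91 ± 0.42, adjusted p = 2.6e-13). In the opposite direction, a peak in an intron of Ndfip2, an adaptor of NEDD4 ubiquitin ligases, held 1.16, 0, 2.6 and 0 in C57BL/6J against 124, 145, 188 and 189.6 in BALB/cJ (log2 ratio -7.19 ± 0.39, adjusted p = 1.5e-13). Each of these peaks was thus near background in one strain, and the hybrid alleles differed as well, the C57BL/6J allele holding 86.1% of 166 tags near Col11a2, 95.6% of 331 tags near Hrh2 and 4.36% of 424 tags near Ndfip2. Further peaks of this kind were higher in C57BL/6J near Zfp691 (log2 ratio 5.34 ± 0.32), Smchd1, a repressor of X-linked and imprinted genes (6.43 ± 0.37), and BC016579 (7.76 ± 0.44). Others were lower in C57BL/6J near Emilin2 (-5.13 ± 0.30), F2rl2 (-7.14 ± 0.43) and Dpy19l3 (-8.49 ± 0.52). A peak near Ubxn2b was also higher in C57BL/6J (3.91 ± 0.25), but still averaged 16.3 ± 8.35 in BALB/cJ.

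Gene lists were read against the background of 3.21% of peaks higher and 4.09% lower in C57BL/6J. Antigen presentation stood furthest from it on the higher side. MHC class II molecules display peptides to CD4 T cells, and of 67 peaks of their genes 17 were higher in C57BL/6J and 1 lower (26.9% called, median log2 ratio 0.41 against 0.02 for all peaks). Of 20 promoter peaks 7 were higher and 0 lower. H2-Eb1, a class II beta chain, held 202, 159, 146 and 186 at its promoter in C57BL/6J against 85.7, 102, 40.3 and 58 in BALB/cJ (log2 ratio 1.30 ± 0.24, adjusted p = 3.1e-04). H2-Ob, part of the molecule that restrains peptide loading, had 3 called peaks, all higher, the furthest apart 10031 bp from its start (40.6, 22.5, 41.6 and 22.6 in C57BL/6J against 6.59, 3.9, 4.03 and 4.98 in BALB/cJ, log2 ratio 2.71 ± 0.38, adjusted p = 3.3e-06). H2-DMb2, a chain of the peptide exchanger H2-DM, had a peak with 61.5, 67.4, 45.5 and 27.9 in C57BL/6J against 17.1, 2.93, 2.68 and 5.99 in BALB/cJ (log2 ratio 2.92 ± 0.41, adjusted p = 3.9e-06). The H2-Ab1 promoter (log2 ratio 1.01) sat at the fold threshold and fell under it in 14 of the alternative settings. Most class II genes lie in 34 to 36 Mb of chromosome 17, where 32 peaks were higher and 5 lower in C57BL/6J of 251.

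MHC class I and peptide loading genes had 4 peaks higher in C57BL/6J and 1 lower of 41. The lower one is the H2-D1 promoter, which serves a heavy chain of class I, with 347, 396, 306 and 273 in C57BL/6J against 798, 1193, 796 and 596 in BALB/cJ (log2 ratio -1.35 ± 0.17, adjusted p = 4.3e-07). The higher ones lie near Psmb9, a subunit of the immunoproteasome (54.5, 19.3, 41.6 and 23.9 in C57BL/6J against 7.91, 8.78, 14.8 and 8.02 in BALB/cJ, log2 ratio 1.94 ± 0.35, adjusted p = 1.9e-04; another at 1.14 ± 0.32), Tap2, a peptide transporter (1.20 ± 0.38), and H2-K1 (1.94 ± 0.39). Class I and class II genes are members of multigene families that differ between haplotypes, and reads of 30 bp may be split between near-identical copies, so these values are uncertain for single genes. At the H2-K1 peak 69.8% of the 30-mers recur elsewhere in mm10.

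**Figure D5:**
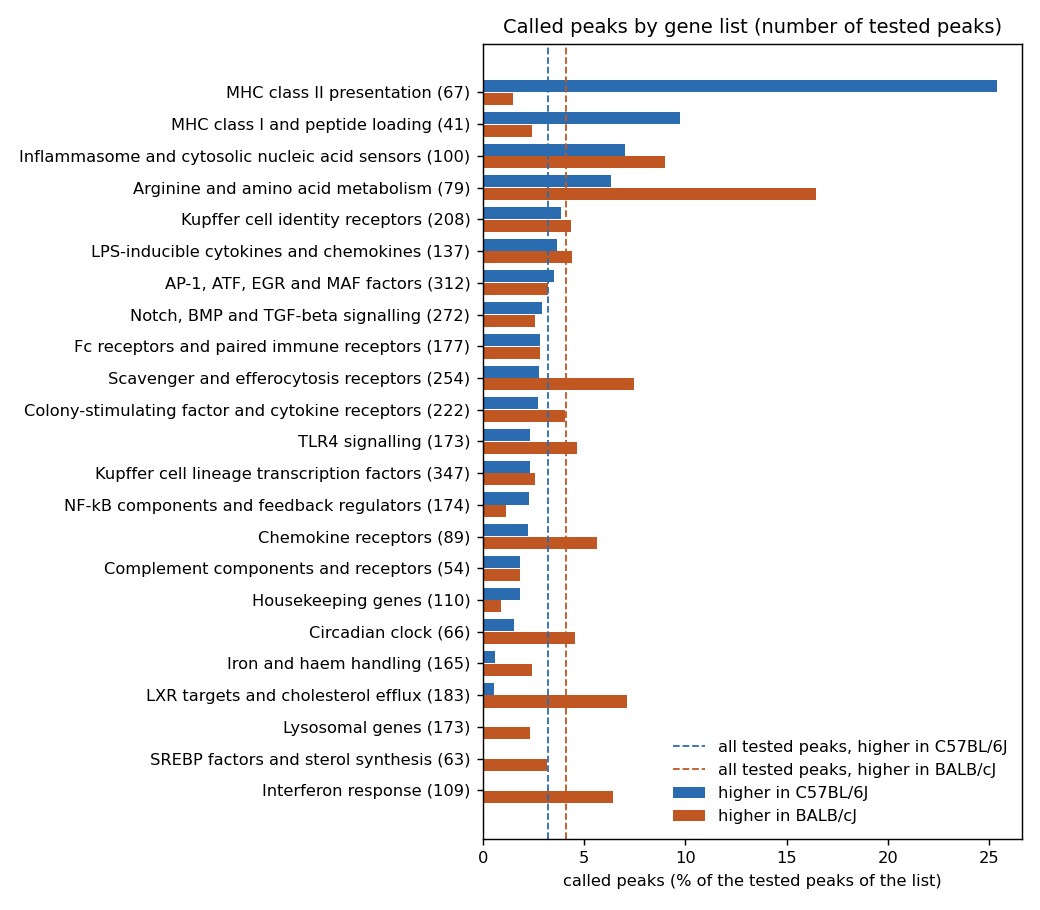
Called peaks of 23 gene lists as a percent of each list's tested peaks (blue, higher in C57BL/6J; orange, higher in BALB/cJ), with dashed lines at 3.21% and 4.09% for all tested peaks. MHC class II stands at 25.4% higher in C57BL/6J, and arginine and amino acid genes at 16.5% higher in BALB/cJ.

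Inflammasome and cytosolic nucleic acid sensor genes differed at 16 of 100 peaks, 7 higher and 9 lower in C57BL/6J. Beyond Nlrp1b, most lay in the cluster of interferon-inducible DNA sensors on chromosome 1, and directions within that cluster were mixed. Ifi202b, which binds cytosolic DNA, was lower in C57BL/6J at 3 peaks, one of them with 0.58, 0, 1.3 and 2.66 in C57BL/6J against 68.6, 56.6, 121 and 112 in BALB/cJ (log2 ratio -6.32 ± 0.53, adjusted p = 2.4e-10). Ifi203 was lower at 3 peaks as well, with 23.8, 20.9, 37.7 and 27.9 in C57BL/6J against 247, 167, 149 and 222 in BALB/cJ at the one with the smallest p (log2 ratio -2.84 ± 0.24, adjusted p = 2.6e-10). Higher in C57BL/6J were a peak in the first intron of Ifi204 (34.8, 51.4, 29.9 and 41.2 in C57BL/6J against 1.32, 0.975, 0 and 1.75 in BALB/cJ, log2 ratio 4.70 ± 0.49, adjusted p = 1.7e-08), the promoter of Ifi209 (1.61 ± 0.35), a peak of Ifi208 (1.95 ± 0.37) and a peak 1511 bp before Aim2, the DNA sensor of an inflammasome (239, 262, 239 and 221 in C57BL/6J against 84.4, 126, 60.4 and 116 in BALB/cJ, log2 ratio 1.28 ± 0.19, adjusted p = 1.0e-05). Naip1, which detects bacterial needle proteins, had 2 peaks lower in C57BL/6J (-1.46 ± 0.28 and -2.76 ± 0.39). These genes are paralogs, and the same limit on short reads holds for them, with 62.2% of the 30-mers of the Ifi203 peak and 56.4% of those of the Ifi204 peak recurring elsewhere.

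Interferon response genes had 0 peaks higher and 7 lower in C57BL/6J of 109. Besides peaks near Rsad2 and Ifit1, the promoter of Ifi44 was lower, with 9.28, 8.02, 5.2 and 5.32 in C57BL/6J against 56.7, 50.7, 59.1 and 97.2 in BALB/cJ (log2 ratio -3.20 ± 0.38, adjusted p = 1.7e-07). So were a peak of Cmpk2, the neighbour of Rsad2 (-1.37 ± 0.37), and one near Irf8 (-1.05 ± 0.28). Genes of the receptors had calls of both directions. A second Ifnar1 peak next to the printed one was lower (log2 ratio -2.11 ± 0.36, adjusted p = 7.6e-05), as was one at Ifnar2 (-1.08 ± 0.27), whereas Ifngr2, a chain of the interferon gamma receptor, had 2 peaks that were higher in C57BL/6J (1.36 ± 0.44 and 1.48 ± 0.30). The windows of the printed Ifnar1 peak and its neighbour overlap, so they share tags.

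TLR4 signalling genes had 4 peaks higher and 8 lower in C57BL/6J of 173, and NF-kB components and feedback regulators 4 higher and 2 lower of 174, both close to the background or under it. Tlr4 was the nearest gene of 3 distal peaks that were lower. One of them is intergenic and 620458 bp from the Tlr4 start (log2 ratio -3.59 ± 0.35, adjusted p = 6.0e-09). Another, past the end of the gene, held 49.3, 67.4, 36.4 and 37.2 in C57BL/6J against 159.5, 123, 154 and 103 in BALB/cJ (log2 ratio -1.49 ± 0.28, adjusted p = 3.3e-04). The coreceptor gene Cd14 had 1 lower peak (-1.12 ± 0.21), while the promoter of Lbp, which hands lipopolysaccharide to CD14, was higher (84.1, 83.5, 105 and 59.8 in C57BL/6J against 30.3, 45.8, 33.6 and 29.9 in BALB/cJ, log2 ratio 1.27 ± 0.24, adjusted p = 2.8e-04). Higher too was a peak in an ERVL-MaLR LTR before Tbk1, the kinase that activates IRF3 (136, 178, 153 and 168 in C57BL/6J against 42.2, 51.7, 63.1 and 72.2 in BALB/cJ, log2 ratio 1.43 ± 0.20, adjusted p = 5.3e-06). The promoter of Nfkbid, an atypical IkB protein, was higher as well (35.9, 44.9, 28.6 and 43.9 in C57BL/6J against 11.9, 8.78, 4.03 and 8.85 in BALB/cJ, log2 ratio 2.15 ± 0.35, adjusted p = 3.6e-05). The hybrid alleles leaned the same way at Lbp (71.5% of 268 tags) and Nfkbid (88.1% of 80 tags). Rel, an NF-kB subunit, had a peak lower in C57BL/6J (log2 ratio -1.15 ± 0.26, adjusted p = 0.0036) that lost its call without C57BL/6J replicate 4 (-0.94).

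Cytokine and chemokine genes that lipopolysaccharide induces had 5 peaks higher and 6 lower of 137. A peak 27061 bp before Il12b, the shared chain of IL-12 and IL-23, was higher in C57BL/6J (63.8, 75.4, 42.9 and 45.2 against 19.8, 16.6, 18.8 and 15.6 in BALB/cJ, log2 ratio 1.71 ± 0.30, adjusted p = 1.3e-04), and another peak of the gene was lower (-1.27 ± 0.37). Cxcl1, a neutrophil attractant, had 2 lower peaks, the one with the smaller p holding 7.54, 0, 7.8 and 10.6 in C57BL/6J against 23.7, 31.2, 52.3 and 63.5 in BALB/cJ (log2 ratio -2.68 ± 0.44, adjusted p = 5.1e-05). Higher in C57BL/6J were peaks near the starts of Il1b (1.36 ± 0.38) and Il10 (1.17 ± 0.37), where 1 or more libraries of the strains overlapped. The Ccl5 promoter, one of the study's examples, was not called (50.4, 57.8, 24.7 and 23.9 in C57BL/6J against 29, 47.8, 10.7 and 6.17 in BALB/cJ, log2 ratio 0.91 ± 0.53, adjusted p = 0.32), and was called without BALB/cJ replicate 2 (log2 ratio 1.69).

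Receptors for cytokines and colony-stimulating factors had 6 higher and 9 lower peaks of 222. Beyond the printed Tnfrsf1a and Ifnar1 sites, Tgfbr2, the type II receptor for TGF-beta, had 4 peaks that were all lower in C57BL/6J, with 6.38, 6.42, 5.2 and 10.6 in C57BL/6J against 103, 91.7, 126 and 106 in BALB/cJ at the one with the smallest p (log2 ratio -3.90 ± 0.33, adjusted p = 2.3e-10). Il21r had 2 lower peaks (-1.37 ± 0.26 and -2.52 ± 0.31). Csf3r, the receptor for granulocyte colony-stimulating factor, had a promoter-proximal peak that was higher (31.9, 36.9, 27.3 and 35.9 in C57BL/6J against 9.23, 7.8, 1.34 and 11.1 in BALB/cJ, log2 ratio 1.97 ± 0.36, adjusted p = 2.3e-04). Lepr, the leptin receptor, had a higher peak 32058 bp before its start (56.8, 67.4, 65 and 47.9 in C57BL/6J against 29, 27.3, 20.1 and 13.3 in BALB/cJ, log2 ratio 1.48 ± 0.29, adjusted p = 6.5e-04), while its 5' UTR peak was not called (log2 ratio -0.91 ± 0.49, adjusted p = 0.27). Among chemokine receptors (2 higher and 5 lower of 89), Cxcr4, which holds cells in marrow and tissue, had peaks of both directions. At one distal peak it held 48.7, 44.9, 41.6 and 21.3 in C57BL/6J against 2.64, 3.9, 5.37 and 4.98 in BALB/cJ (log2 ratio 3.12 ± 0.43, adjusted p = 2.6e-06), and at another, on the other side of its start, 5.8, 1.6, 10.4 and 12 in C57BL/6J against 48.8, 46.8, 141 and 87.8 in BALB/cJ (log2 ratio -3.44 ± 0.44, adjusted p = 7.8e-07). The Cxcr4 promoter between them did not pass (log2 ratio -0.05 ± 0.25, adjusted p = 0.93), and the C57BL/6J allele held 83% of 179.5 tags at the first distal peak and 12.2% of 111 tags at the second. Cx3cr1, which monocyte-derived cells express, had a lower peak (-2.33 ± 0.40), beside a promoter that held 4.76 ± 3.43 in C57BL/6J and 23.4 ± 5.99 in BALB/cJ. The part of the monocyte markers in this call was not tested.

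Of 312 peaks near genes for bZIP and EGR factors, 11 were higher and 10 lower, and the share called, 6.73%, was under the 7.31% of all peaks. Fos, Fosl2, Jun, Egr1 and Egr3, immediate early factors singled out after their values were seen, had 8 called peaks, all higher in C57BL/6J. Egr3 held 381, 481, 378 and 384 in C57BL/6J against 170.1, 263, 156 and 203 in BALB/cJ at the most open of them (log2 ratio 1.02 ± 0.15, adjusted p = 9.3e-06), and Fosl2 63.2, 77, 80.6 and 61.2 in C57BL/6J against 22.4, 29.3, 17.4 and 15.3 in BALB/cJ (log2 ratio 1.78 ± 0.27, adjusted p = 1.6e-05). Nfe2l2, which encodes the oxidative stress factor NRF2, had 2 higher peaks, one with 325, 380.3, 356 and 258 in C57BL/6J against 116, 203, 139.6 and 86.3 in BALB/cJ (log2 ratio 1.30 ± 0.19, adjusted p = 1.0e-05). Bach2, a repressor that shares MAF partners with NRF2, had 5 peaks, all lower, with log2 ratios of -2.13 ± 0.37 to -1.27 ± 0.30. At the Bach2 peak with the smallest p, 38.8, 17.7, 36.4 and 29.3 in C57BL/6J stood against 67.2, 76.1, 193 and 208 in BALB/cJ. All BALB/cJ libraries lay above all C57BL/6J libraries there, with BALB/cJ replicates 3 and 4 well above the other 2, as at Clec4f. Batf, Batf3, Maf and Bach1 had lower peaks only (log2 ratios -1.07 to -1.23).

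Kupffer cell identity receptors had 8 higher and 9 lower peaks of 208, and lineage transcription factors 8 and 9 of 347. Of the 18 tested promoter peaks of the Kupffer cell and macrophage markers 1 was higher in C57BL/6J, at a peak that was not the highest of its gene (above), and some genes had distal peaks called in both directions. Cd5l had 6 called peaks, 4 higher in C57BL/6J and 2 lower. The one 1094 bp before its start held 46.4, 40.1, 46.8 and 54.5 in C57BL/6J against 9.23, 9.75, 14.8 and 10.1 in BALB/cJ (log2 ratio 2.12 ± 0.32, adjusted p = 1.4e-05), with 66.1% of 309.5 tags from the C57BL/6J allele. Timd4, a receptor for dying cells, had a higher peak at 25630 bp (56.2, 38.5, 68.9 and 49.2 in C57BL/6J against 0, 5.85, 4.03 and 2.12 in BALB/cJ, log2 ratio 4.30 ± 0.49, adjusted p = 9.4e-08) and 2 lower ones (-1.22 ± 0.34 and -2.02 ± 0.34). Marco, a scavenger receptor, had 3 higher peaks 14575 to 22718 bp before its start, and the libraries of the strains overlapped at each. A Clec4f peak 3423 bp from its start was lower in C57BL/6J (11, 12.8, 15.6 and 17.3 against 46.1, 12.7, 109 and 146 in BALB/cJ, log2 ratio -2.54 ± 0.46, adjusted p = 2.1e-04), again with replicates 3 and 4 as the highest BALB/cJ libraries and replicate 2 inside the C57BL/6J range. Among lineage factors, Zeb2 had 3 higher peaks (log2 ratios 1.24 to 1.69), and lower peaks lay near Maf, Rreb1, Rxra, Pparg and Irf8. Mitf, a factor of the lysosome and of macrophages, had 1 higher and 2 lower peaks.

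Notch, BMP and TGF-beta genes had 8 higher and 7 lower peaks of 272, the lower ones including the 4 at Tgfbr2 counted above. Besides the Hes1 peak, Id2, an inhibitor of helix-loop-helix factors that BMPs induce, had a distal peak with 49.9, 25.7, 50.7 and 19.9 in C57BL/6J against 0, 0, 2.68 and 1.38 in BALB/cJ (log2 ratio 4.87 ± 0.54, adjusted p = 8.9e-08), and the C57BL/6J allele held 97.6% of 104 tags. The receptor genes Acvrl1 (1.34 ± 0.33 and 1.46 ± 0.34) and Bmpr2 (1.35 ± 0.28), and Rbpj (1.29 ± 0.37), had higher peaks as well. Notch2 (-1.25 ± 0.40), Maml2, a Notch coactivator (-1.55 ± 0.36), and Smad6, an inhibitor of BMP signals (-1.18 ± 0.38), had lower ones.

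LXR targets and cholesterol efflux genes had 1 higher and 13 lower peaks of 183 (median log2 ratio -0.14), and their share called, 7.65%, was near the 7.31% of all peaks. Abcg1, which exports cholesterol, had 4 lower peaks, with 124, 106, 114 and 118 in C57BL/6J against 200.4, 295, 281 and 198 in BALB/cJ at the most open (log2 ratio -1.06 ± 0.20, adjusted p = 3.7e-04). Soat1, which esterifies cholesterol, had a peak with 43.5, 54.6, 53.3 and 53.2 in C57BL/6J against 134, 165, 148 and 169 in BALB/cJ (log2 ratio -1.61 ± 0.22, adjusted p = 3.0e-06; 23% of 468 tags from the C57BL/6J allele). Npc1, which moves cholesterol out of lysosomes, had an intronic peak with 28.4, 17.7, 23.4 and 25.3 in C57BL/6J against 128, 95.6, 102 and 189 in BALB/cJ (log2 ratio -2.43 ± 0.29, adjusted p = 1.8e-07). Mylip, which degrades the LDL receptor, had 3 lower peaks (log2 ratios -1.33 to -2.22). At all of these 9 peaks the strains did not overlap. The one higher peak, near Lpl, held 35.4, 44.9, 44.2 and 34.6 in C57BL/6J against 2.64, 0, 0 and 0.369 in BALB/cJ (log2 ratio 6.13 ± 0.65, adjusted p = 2.4e-08). Of the 34 promoter peaks of this list none was called, and peaks of all genes beyond 5 kb of a start had median log2 ratios below 0 in each distance class. Genes of sterol synthesis had 0 higher and 2 lower of 63, one of them near Insig1, which holds back the activation of SREBP (-1.70 ± 0.34).

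Scavenger and efferocytosis receptors, which take up modified lipids and dead cells, had 7 higher and 19 lower peaks of 254 (10.2% called), and 12 genes had a lower peak. Cd300ld, an activating member of the CD300 family, showed the smallest p, with 11, 3.21, 5.2 and 6.65 in C57BL/6J against 144, 149, 129 and 112 in BALB/cJ (log2 ratio -4.17 ± 0.34, adjusted p = 1.9e-10; 7.73% of 814 tags from the C57BL/6J allele). Olr1, a receptor for oxidised LDL, had 2 lower peaks, one with 2.9, 0, 0 and 1.33 in C57BL/6J against 39.6, 30.2, 63.1 and 48.9 in BALB/cJ (log2 ratio -4.86 ± 0.59, adjusted p = 3.6e-07). Msr1, scavenger receptor A, held 66.1, 54.6, 44.2 and 46.5 in C57BL/6J against 116, 151, 149 and 166 in BALB/cJ at one of its 2 lower peaks (log2 ratio -1.45 ± 0.20, adjusted p = 2.5e-06). At Olr1 and Msr1 the strains did not overlap. Colec12 was lower at its promoter (-1.34 ± 0.27) and 2 distal peaks, and Mertk, a receptor tyrosine kinase for dying cells, at 3 intronic peaks. Tyrobp, the adaptor of TREM2 and CD300 receptors, had a higher promoter peak (51.6, 48.1, 42.9 and 35.9 in C57BL/6J against 17.1, 29.3, 21.5 and 14.1 in BALB/cJ, log2 ratio 1.18 ± 0.30, adjusted p = 0.0096), and Elmo1 a higher intronic peak (1.19 ± 0.26). The promoter of Trem2 did not pass (log2 ratio -0.09 ± 0.30, adjusted p = 0.9).

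Fc and paired receptors had 5 higher and 5 lower peaks of 177, the complement list 1 and 1 of 54, and both complement peaks lie in the C1q cluster. A peak before C1qb held 30.7, 28.9, 24.7 and 39.9 in C57BL/6J against 3.96, 3.9, 8.05 and 1.66 in BALB/cJ (log2 ratio 3.21 ± 0.49, adjusted p = 1.5e-05), and one near C1qc 27.2, 27.3, 32.5 and 41.2 in C57BL/6J against 119, 71.2, 68.5 and 79.8 in BALB/cJ (log2 ratio -1.40 ± 0.28, adjusted p = 6.9e-04). C1q genes encode the chains of the first complement component, made mainly by macrophages. Siglec1, a sialic acid receptor of tissue macrophages, had a lower peak (8.12, 1.6, 3.9 and 3.99 in C57BL/6J against 33, 36.1, 61.7 and 50.3 in BALB/cJ, log2 ratio -3.14 ± 0.47, adjusted p = 1.4e-05), and Sirpa, which receives the CD47 signal, had 2 higher ones (1.35 ± 0.42 and 1.63 ± 0.48). The Sirpb1a promoter was lower (-2.24 ± 0.44) and the Sirpb1b promoter had no BALB/cJ tag, in a family of near-identical genes.

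Arginine and amino acid genes had the largest share called after MHC class II, 5 higher and 13 lower of 79 (22.8%). Slc7a2, a transporter of cationic amino acids, was higher in C57BL/6J at its 5' UTR (29.6, 27.3, 26 and 30.6 against 5.27, 6.83, 6.71 and 2.03 in BALB/cJ, log2 ratio 2.76 ± 0.49, adjusted p = 1.7e-04) and 11175 bp before it (71.9, 67.4, 67.6 and 61.2 against 1.32, 4.88, 6.71 and 4.79 in BALB/cJ, log2 ratio 3.85 ± 0.31, adjusted p = 1.4e-10). Slc7a5, a chain of the large neutral amino acid transporter, had a distal peak with 48.7, 25.7, 57.2 and 55.8 in C57BL/6J against 0, 0.975, 0 and 2.76 in BALB/cJ (log2 ratio 4.58 ± 0.47, adjusted p = 2.2e-08), where the C57BL/6J allele held 96.7% of 119.5 tags in the hybrid. The promoter of Acod1, which makes itaconate, was higher too (208, 231, 129 and 137 in C57BL/6J against 69.9, 132, 47 and 39.2 in BALB/cJ, log2 ratio 1.34 ± 0.30, adjusted p = 0.0031), with BALB/cJ replicate 2 inside the C57BL/6J range. The lower peaks belonged to transporters and enzymes of other steps. Arg2, mitochondrial arginase, had 2, one with 47.5, 35.3, 46.8 and 26.6 in C57BL/6J against 111, 131, 172 and 163 in BALB/cJ (log2 ratio -1.86 ± 0.26, adjusted p = 4.3e-06). Slc7a7 and Slc7a11, which carry cationic amino acids and cystine, had 3 each (log2 ratios -1.16 to -2.40 and -1.14 to -2.75), and Odc1, the first enzyme of polyamine synthesis, had 2. The 13 lower peaks of the list belong to 5 genes.

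Lists near or under the background included lysosomal genes, with 0 higher and 4 lower of 173 (2.31%), and housekeeping genes, with 2 higher and 1 lower of 110. Ctsl, cathepsin L, had 2 of the lysosomal peaks, one with 6.96, 1.6, 2.6 and 0 in C57BL/6J against 34.3, 33.2, 34.9 and 48.3 in BALB/cJ (log2 ratio -3.40 ± 0.47, adjusted p = 3.1e-06). Of the housekeeping peaks, one is the Gapdh promoter (148, 133, 203 and 125 in C57BL/6J against 96.3, 87.8, 45.6 and 59.5 in BALB/cJ, log2 ratio 1.09 ± 0.25, adjusted p = 0.0028). Circadian clock genes had 1 higher and 3 lower of 66, and the lower ones all lie upstream of Bhlhe41, a transcriptional repressor of the clock. Its promoter held 29, 19.3, 35.1 and 41.2 in C57BL/6J against 105, 93.6, 77.9 and 129 in BALB/cJ (log2 ratio -1.71 ± 0.29, adjusted p = 8.6e-05). The higher clock peak, at Cry2, passed barely (log2 ratio 1.05 ± 0.34, adjusted p = 0.047) and lost its call in 9 alternative settings. Example genes from the study, a list chosen on these strains, are no independent sample. Their peaks numbered 112, with 10 higher and 4 lower. Plac8 had 3 of the higher ones, the one with the smallest p holding 97.4, 103, 101 and 82.4 in C57BL/6J against 10.5, 12.7, 21.5 and 24.5 in BALB/cJ (log2 ratio 2.37 ± 0.31, adjusted p = 1.4e-06).

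Motif words were counted on both strands of each distal peak, beyond 1 kb of a start. The MAF word TGCTGAC occurred in 5.58% of distal peaks higher in C57BL/6J, in 9.67% of those lower and in 6.63% of all tested distal peaks. The RUNX word TGTGGTTT stood in 2.79% of the higher, 4.13% of the lower and 2.57% of all. The IRF word AAANNGAAA was more frequent on the other side, at 14.2% of the higher, 9.51% of the lower and 12.6% of all, and so was the NF-kB word GGGANTTTC (2.20%, 1.20% and 1.54%). The NF-kB word is rare, and with promoters included 37 higher and 24 lower peaks held it. In all 15 words were searched, and their differences were not tested. The AP-1 word was at 17.6% of the higher and 17.3% of the lower peaks against 14.9% of all. The ETS word AGGAAGT, the core that PU.1 and other ETS factors bind, lies within the longer word GAGGAAGT and was at 25.6%, 25.5% and 27.4%. Words were read in the C57BL/6J reference only, so a site that BALB/cJ has gained or lost is not counted. Median GC content of distal peaks was 48.3% for higher, 47.8% for lower and 48.3% for all.

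At 39 peaks no BALB/cJ library had a tag, and at 6 no C57BL/6J library had one. The 39 averaged 32.1 to 253.5 normalised counts in C57BL/6J, and a fold can only be bounded from below, with 3 counts taken for all BALB/cJ libraries together. Vgll3, a transcriptional cofactor, lay nearest to an intergenic peak with 125, 159, 155 and 117 in C57BL/6J, which is at least 619-fold higher, or 117-fold without BALB/cJ replicate 4. The promoter of Ccl27a, a skin chemokine, held 85.2, 56.2, 78 and 47.9 in C57BL/6J (at least 298-fold higher, and 56.3-fold without that library). At least 50% of the 30-mers of the sequence occur elsewhere in mm10 at 10 of the 39 peaks, the Ccl27a promoter among them (55.2%), and none do at 14, such as the Vgll3 peak. In a row without another tested peak between them stood 4 peaks at Nlrp1b and Nlrp1c-ps on chromosome 11 and 2 at Skint3 on chromosome 4. Of the 39 peaks, 18 had no A/J tag either. Of the 31 that matched a hybrid peak, 6 had variant-spanning tags there, among them the Ccl27a promoter, where the C57BL/6J allele held every one of 247 tags. Of the 6 peaks without a C57BL/6J tag, one in an intron near Vti1b, a SNARE protein, held 75.2, 57.5, 40.3 and 41.8 in BALB/cJ, which is at least 69.3-fold higher in BALB/cJ. There the C57BL/6J allele of the hybrid did hold tags, 29% of 126 tags. The BALB/cJ genome used for alignment holds small variants only, and whether these sequences can be mapped in BALB/cJ was not tested.

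The chromosome 11 interval lies at 3101961 to 3189209 and holds 97 peaks, none with variant-spanning tags. Of its 65 tested peaks 2 were higher and 52 lower in C57BL/6J (83.1%, against the 7.31% above), with a median log2 ratio of -4.62. Summed normalised counts were 1285 to 1658 in C57BL/6J against 6556 to 8898 in BALB/cJ, and 4997 to 6022 in A/J. Just outside it, a peak in a CpG island at the start of Sfi1, a centrosome gene, held 89.9, 139.6, 104 and 153 in C57BL/6J against 479, 329.6, 753 and 497 in BALB/cJ (log2 ratio -2.10 ± 0.24, adjusted p = 7.5e-08). Peaks whose sequence resembles mitochondrial DNA stood apart too: near Col19a1 a peak held 1.74, 1.6, 23.4 and 0 in C57BL/6J against 15014, 17611, 15879 and 17039 in BALB/cJ (log2 ratio -11.43 ± 0.35, adjusted p = 1.4e-20), beside the 0% of mitochondrial tags in the untreated C57BL/6J columns (above). Of 3 tested peaks with such 30-mers in their window, 2 were called. Leaving out peaks with at least 50% repeated 30-mers and these peaks left 3638 calls.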

How the data were processed

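Raw tags per merged peak were taken from the inbred table that the authors deposited, which holds counts in a 1000-bp window around each peak. Before alignment with Bowtie2 the authors cut reads to 30 bp. C57BL/6J reads went to mm10 and BALB/cJ reads to a genome made from mm10 with small variants, whose positions were then shifted back to mm10. They called peaks with HOMER, kept reproducible ones by IDR and merged them over groups. Versions of these tools are not given in the sources used here. The control columns hold expected counts in steps of 0.5 tags as deposited by the authors (45.8 to 49.7% of values were not whole in C57BL/6J and BALB/cJ), and these were rounded up. The hybrid table of the authors, also expected counts, holds tags that align perfectly and span a variant, per allele, and was matched to the inbred peaks at a reciprocal overlap of at least 50%. The deposited peak files of the authors hold a depth-scaled signal, from which only the total tags of each library were read.

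All 17 inbred libraries in 5 groups were fitted with edgeR 4.0.16 (TMM, quasi-likelihood F test, R 4.3.3) and C57BL/6J controls were contrasted with BALB/cJ controls. P-values were adjusted by Benjamini and Hochberg over all nuclear peaks with a mean normalised count above 16, X, Y and the chromosome 11 interval included. SE is the absolute log2 ratio over the square root of F. Distances and annotations are those of the deposited tables, and gene lists take the nearest start. Counting error alone sets the limit of 3 counts for a group at 0. Peaks named were those with the smallest p in each direction, 8 within 1 kb of a start and 8 from 1 to 100 kb, the smallest p per list, and the highest promoter peak of marker and example genes, for named genes whose groups did not overlap. Further peaks of list genes, the Btbd11 allele shares and the windows were chosen after their values were seen. Members and lists were chosen with earlier results of these data known.

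The scripts were tested on simulated data. Alternatives were DESeq2 1.42.0, other scalings, count minima, library sets, depths, rounding, repeats, folds, a replicate block and each replicate left out. Sequences are from GRCm38.p6. Results of some peaks are not reported here.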

Additional observations from a re-analysis of the deposited data

Results flagged for a closer look

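Of 192 groups of 4 libraries, those of named peaks in which no library reached a normalised count of 1 were not examined. Among the others, 4 had a library whose gap to the nearest other library was above the 95% limit of Dixon's ratio. Chance alone gives about 1 in 20. The largest was the total of BALB/cJ replicate 4, 178.3 M tags against 12.2 to 15.9 M in the other BALB/cJ libraries. At the Col19a1 peak 25634 bp before the gene, C57BL/6J replicate 3 held 23.4 normalised counts, against 0 to 1.74 in the other C57BL/6J libraries. At the Psmb9 peak 6634 bp from the start, BALB/cJ replicate 3 held 14.8, against 7.91 to 8.78 in the other BALB/cJ libraries. At the Lpl peak 42681 bp before the gene, BALB/cJ replicate 1 held 2.64, against 0 to 0.369 in the others. Mitochondrial peaks, which enter none of the comparisons, held 0% of the tags in peaks in all 4 C57BL/6J libraries but 19.9%, 21.1%, 25.8% and 25.3% in BALB/cJ replicates 1 to 4, and 19.6 to 28.1% in C57BL/6J after LPS.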

How the results depend on the processing

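The number of called peaks followed depth and thresholds, and no peak was called in opposite directions under any setting run. With no minimum count 7503 peaks were called (3543 higher and 3960 lower in C57BL/6J), with a minimum of 32 there were 1631 (672 and 959), with all columns thinned to the smallest 1521 (618 and 903), and at an absolute log2 ratio over 2 there were 1274 (583 and 691). Leaving out each replicate in turn gave 2591 to 4599 calls, 1157 to 2109 higher and 1311 to 2490 lower. Without BALB/cJ replicate 4, 1311 were lower, 63.3% of the 3744 calls were kept, and the share called was 2.19% for promoters, 6.40% for introns and 7.36% for intergenic peaks. With that library thinned to the mean depth of the other BALB/cJ libraries there were 3049 calls (1342 higher and 1707 lower). DESeq2 gave 3604 calls and shared 3474 with edgeR. The scaling moved the median log2 ratio of all peaks little (0.023 with TMM, 0.0024 with DESeq2 size factors and 0.014 with total tags). Called peaks with variant-spanning tags made up 43.7% at a minimum of 32 tags and 44.8% at a reciprocal overlap of 90%.

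With the replicate number as a block 4022 peaks were called (1815 higher and 2207 lower). Same-numbered C57BL/6J and BALB/cJ libraries had correlations of deviations of 0.066, 0.31, 0.078 and 0.24, so the numbers were not taken to pair the samples, and C57BL/6J replicates 1 and 3 correlated best with BALB/cJ replicates 2 and 4. Replicates 1 and 2 did stand apart from 3 and 4 in both strains: correlations across strains were 0.066 to 0.31 within these sets and -0.066 to -0.34 between them, and the second principal component (16.4% of variance) separated them. The labels name no batch, but the paper colours a principal component plot of its parental ATAC-seq data by batch. Those batches were not used here. The main fit holds no batch term, and the block takes in this split. Among named peaks, the H2-Ab1 promoter lost its call under 14 settings (log2 ratio 0.86 to 0.998), Cry2 under 9, Ftl1 under 3, and Rel and Aco1 under 1 each. Ccl5 gained one under the block (1.01) and without BALB/cJ replicate 2 (1.69), and the Clec4f promoter without BALB/cJ replicate 2 (-1.26). Leaving out peaks of repeated or mitochondrial 30-mers, chosen after seeing the data, kept 3638. Depth limits weak peaks, since those with a mean of 16 or less were not tested.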

Other observations

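Untreated A/J mice (n = 4) were not part of the contrast, and their values at some of the peaks above are given here. Their libraries did enter the fit, for its scaling and its estimate of the spread. At the Cd300ld peak that was lower in C57BL/6J, A/J averaged 2.69 ± 3.39, beside 6.52 ± 3.31 in C57BL/6J and 133 ± 16.7 in BALB/cJ. At the Siglec1 peak A/J averaged 2.64 ± 3.13, beside 4.4 ± 2.71 in C57BL/6J and 45.3 ± 13.3 in BALB/cJ. At the Slc7a2 peak 11175 bp before its start A/J was near BALB/cJ instead, with 3.78 ± 0.7 in A/J, 67 ± 4.42 in C57BL/6J and 4.42 ± 2.25 in BALB/cJ. The Alad promoter averaged 403 ± 56.5 in A/J, 151 ± 22 in C57BL/6J and 376 ± 52.1 in BALB/cJ. The Mpp7 promoter stood between the strains, at 148 ± 29.3 in A/J, 299 ± 55.5 in C57BL/6J and 20.9 ± 9.93 in BALB/cJ. These values were not tested.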
